A study of Mus musculus with 6 samples.

Results

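The genes described here encode the proteins of the cytosolic ribosome in mouse induced pluripotent stem cells (iPSCs). They were chosen by name, as probe sets whose single gene symbol is Rpl or Rps followed by a number, Rplp0 to Rplp2 or Rpsa, leaving out pseudogene names and the Rps6 kinases, with the brightest probe set taken for each gene. This gave 61 of the 19938 named genes, 38 of the large subunit and 23 of the small subunit. The data were 6 Affymetrix mouse gene arrays of total RNA from bulk cultures, 3 labelled primed and 3 labelled naive, and the question is how gene expression differs between these states of pluripotency. Values are log2 signals from the RMA method (robust multi-array average), so a difference of 1 is a doubling of signal.

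Primed cultures were grown in medium conditioned by mouse embryonic fibroblasts with 8 ng/ml bFGF, on feeder cells or matrigel. Naive cultures were grown in DMEM with 15% serum, amino acids, pyruvate, mercaptoethanol and 1000 U/ml LIF. The labels give no strain, age or sex, and do not say how many lines were used. The titles name adult dermal fibroblasts as the source of the primed iPSCs and embryonic fibroblasts as that of the naive ones, while another label field gives embryonic fibroblasts for all 6. Culture state and cell of origin therefore cannot be told apart by the titles. The titles number the arrays as biological replicates but do not say at which step they were separate, so p-values may cover technical spread alone.

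Markers of the states did not all go with the labels. Of 10 naive state markers, 2 were higher in primed cultures, Esrrb (2.98, log2) and Nr0b1 (2.29). The 5 lower in primed were Dppa3 (-2.81), Tfcp2l1 (-0.60), Klf2 (-0.59), Klf5 (-0.58) and Klf4 (-0.23). Of 10 primed state markers, 4 were higher and 3 lower, with Otx2 0.92 higher and Fgf5 lower (difference -1.71). Zfp42 and Prdm14 did not exceed the signal of olfactory and vomeronasal receptor genes in either group. Of 7 core pluripotency markers 5 were lower in primed, among them Pou5f1 (difference -1.06). Of 13 fibroblast markers measured, 2 were higher and 6 lower in primed, so the list did not move one way. Dcn had the largest difference and was higher in primed (2.89), as was Pdgfrb (0.37), while Acta2 (-1.23), Tagln (-1.09), Col1a1 (-0.76) and Col1a2 (-0.32) were lower. The other lower calls, Postn and S100a4, lay within the receptor signal in both groups, as did Lum. The summed linear signal of the 13 was 12793 to 13700 on primed arrays and 16675 to 17394 on naive arrays, a sum to which bright markers add most. The part of contaminating or feeder fibroblasts in the results below was not tested.

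A ribosome joins a small subunit, which reads the mRNA, to a large subunit, which forms the peptide bond, and each is built in the nucleolus from ribosomal RNA and ribosomal proteins. The proteins are needed in matched amounts, and their mRNAs are among the most abundant of growing cells. Most carry a run of pyrimidines at the 5′ end, the terminal oligopyrimidine (TOP) tract, through which the mTOR pathway adjusts their translation rather than their transcription. Pluripotent stem cells are known for active ribosome production.

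Start regions from RefSeq (build GRCm38.p6) show members with and without a pyrimidine run near the start. Each line holds 40 bases before the annotated transcription start and 20 from it onward, in the direction of the gene, and capitals mark a run of at least 7 bases that are C or T and that reaches within 10 bases of the start. Rps6 and Rps18 are shown as genes whose tract begins near the start. Rpl13, Rpl34, Rpl22 and Rpl7l1 are shown because their signals differed between the groups.
Rps6, chr4:86857348-86857407, minus strand: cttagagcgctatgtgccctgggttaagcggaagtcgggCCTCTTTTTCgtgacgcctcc
Rps18, chr17:33955646-33955705, minus strand: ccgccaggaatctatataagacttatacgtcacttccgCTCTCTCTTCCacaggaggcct
Rpl13, chr8:123102310-123102369, plus strand: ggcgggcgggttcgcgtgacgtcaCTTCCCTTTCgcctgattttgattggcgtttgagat
Rpl34, chr3:130730379-130730438, minus strand: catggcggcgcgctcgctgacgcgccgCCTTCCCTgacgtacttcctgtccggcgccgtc
Rpl22, chr4:152324396-152324455, plus strand: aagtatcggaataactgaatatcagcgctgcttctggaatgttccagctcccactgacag
Rpl7l1, chr17:46782637-46782696, minus strand: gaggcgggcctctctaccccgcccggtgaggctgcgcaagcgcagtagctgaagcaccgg
The lines for Rpl22 and Rpl7l1 hold no such run, and Rpl22 and Rpl34 each have 2 annotated starts. Of 58 annotated starts of the 49 members in the RefSeq promoter table, 25 (43.1%) had such a run, against 19.7% of all 32851 starts. A C at the start base followed by 4 more C or T was found at 10 of the 58 starts (17.2%), against 2.51% of all starts. The search read the strand of the gene only, since the tract is a feature of the transcript. It also counted runs that end before the annotated start, as in the lines for Rpl13 and Rpl34. The share of starts with a run is therefore not a share of transcripts with a TOP tract. The large and small subunit did not stand far apart, with 15 of 35 and 10 of 23 starts holding a run.

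Across the whole array, 44.5% of genes passed the threshold between primed and naive cultures (limma, adjusted p under 0.05), 21.8% higher and 22.7% lower in primed. Of the 61 ribosomal protein genes, 6 passed (9.84%), 2 of them higher in primed (Rpl22 and Rpl13) and 4 lower (Rps4l, Rpl30, Rpl7l1 and Rpl34). The median difference of the 61 was -0.003, beside -0.001 over all genes, and the median size of difference was 0.053, beside 0.135 over all genes. In bulk RNA, fewer cells that express a gene and less of its RNA per cell cannot be told apart. The count of 6 depends on the scaling of the arrays and on the variance model. It became 16 (9 higher and 7 lower) with limma's intensity trend, at unchanged scaling. It became 14 with arrays centred on the median of all named genes, 16 with centring on bright genes, and 17 and 13 with quantile normalization of gene values and of all probe sets.

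At the deposited scaling, most members had a narrow interval around a small difference. These intervals carry the spread between arrays alone. They leave out the choice of scaling, which moved the members' median between -0.07 and 0.07. For 49 of the 61, the 95% confidence interval of the difference lay within 0.25 of 0, which held for 43.3% of all genes. Sizes over 0.1 were found for 17 members (27.9%), against 59.1% of all genes. The values of primed and naive arrays did not overlap for 24 of 61 members (39.3%), against 52.9% of all genes, 74.3% of bright genes and 71.8% of genes at or above the members' median signal, both without the members. Of those 24, 11 had a higher and 13 a lower mean in primed.

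The members gave bright signals, 47 of them above the 90th percentile of all genes, so they were also set beside other bright genes. Among the 1947 bright genes that are not members, 57.5% passed the threshold (18.0% higher and 39.4% lower in primed), and the median size of difference was 0.181. Among the 142 non-members at or above the members' median signal of 12.85, 43.0% passed (9.15% higher and 33.8% lower), with differences between -0.47 and 0.70. Genes of that brightness were thus called in both directions. Signal was not compared between probe sets as a measure of transcript number.

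**Figure D1:**
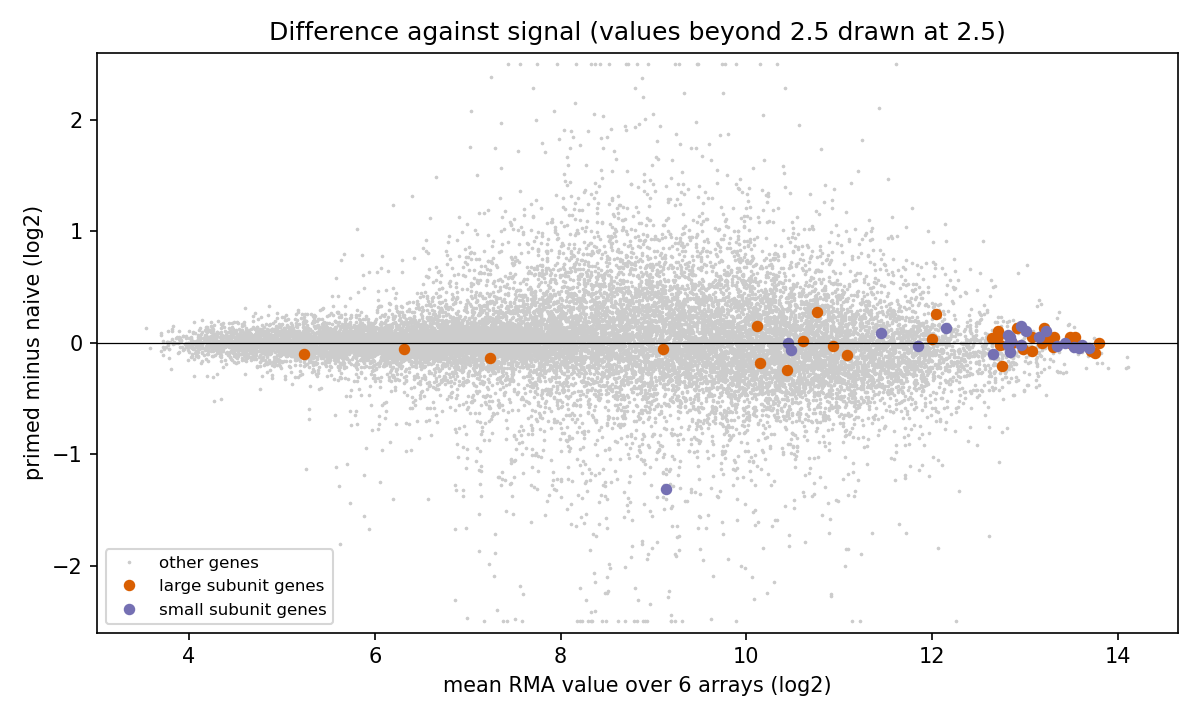
The difference, primed minus naive on the log2 scale, is plotted against the mean log2 signal over 6 arrays for every named gene, with large subunit genes in orange, small subunit genes in violet and other genes in grey. The ribosomal protein genes sit near 0 at the bright end, where other genes at or above 12.85 lie between -0.47 and 0.70, and the violet point near -1.31 is Rps4l.

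In the large subunit, 2 of 38 genes were higher, 3 lower and 33 did not pass. The median difference was -0.002, the quartiles were -0.06 and 0.05, and the whole range ran between -0.24 and 0.28. In the small subunit, 0 of 23 were higher, 1 lower and 22 did not pass, and 2 had an unadjusted limma p under 0.05. Without Rps4l, which RefSeq calls a transcribed pseudogene, the 22 coding small subunit genes lay between -0.10 and 0.15 with no call in either direction. The count of small subunit genes higher in primed, 0 here, became 7 with centring on bright genes, 8 and 5 with quantile normalization of gene values and of all probe sets, and 4 with the intensity trend. The median of the small subunit was -0.02, so the subunits' medians differed by 0.02. Both medians turned positive with bright-gene centring (0.07 large, 0.05 small) and with either quantile normalization, and both were more negative with centring on all genes (-0.07 large, -0.09 small).

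**Figure D2:**
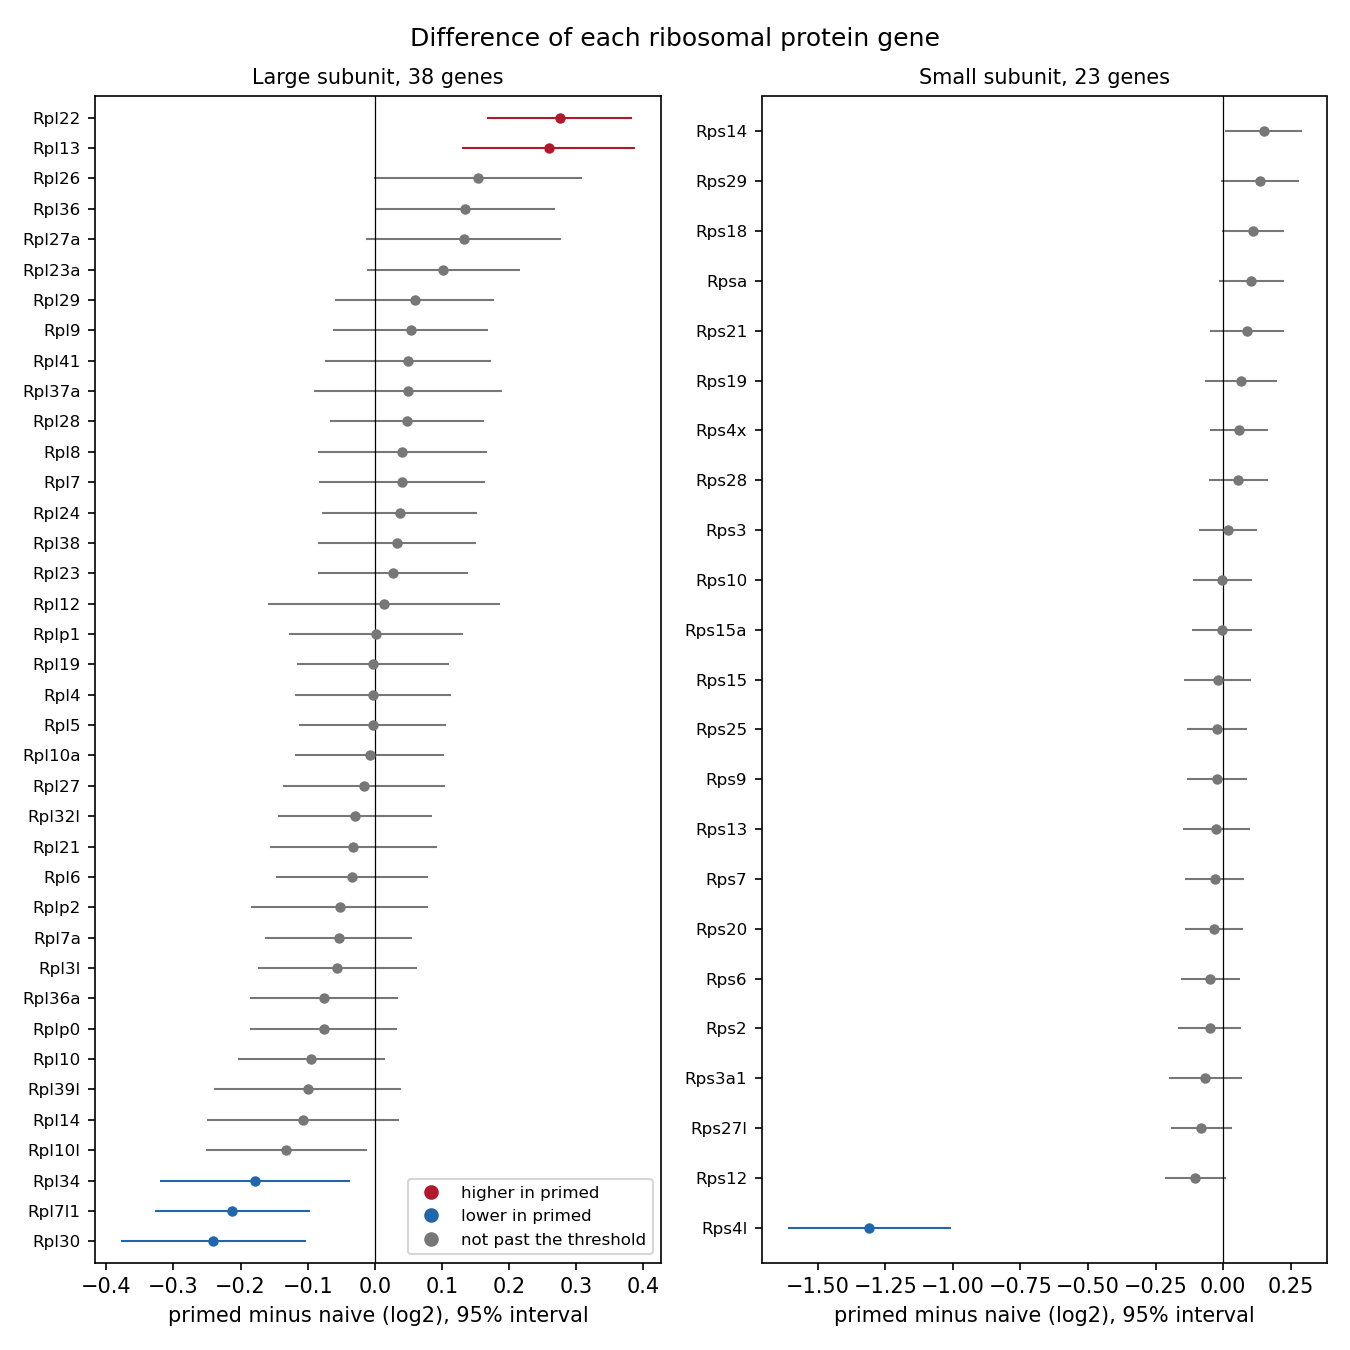
Each point is a gene's difference, primed minus naive on the log2 scale, with its 95% confidence interval, for large subunit genes on the left and small subunit genes on the right; red marks genes higher in primed, blue lower and grey those that did not pass the threshold. All points but Rps4l lie between -0.24 and 0.28.

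The largest difference was that of Rps4l, on chromosome 6, which is named for its likeness to the small subunit gene Rps4x. Its brightest probe set read 8.67, 8.54 and 8.24 on the primed arrays, against 9.46, 9.89 and 10.03 on the naive arrays. All primed arrays were below all naive arrays, and the spread was wider in both groups than for any other member called. The difference was -1.31 ± 0.14 (SE, n = 3 arrays per group; limma, adjusted p = 1.15e-05), a 2.48-fold lower signal in primed. A further Rps4l probe set read 7.95, 8.18 and 8.01 on primed arrays and 9.95, 9.99 and 9.98 on naive arrays, a difference of -1.93. Rps4x itself, the X-linked gene for the small subunit protein, read 13.18, 13.21 and 13.16 in primed and 13.12, 13.13 and 13.13 in naive. Its groups did not overlap, yet the difference of 0.06 did not pass (limma, adjusted p = 0.398).

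Rpl22, a large subunit protein that in mice is needed for the development of αβ T cells, read 10.93, 10.88 and 10.88 on primed arrays and 10.61, 10.62 and 10.63 on naive arrays. The arrays of each group lay close together and the groups were clearly apart. The difference was 0.28 ± 0.05 (SE, n = 3 per group; limma, adjusted p = 0.000693), or 1.21-fold higher in primed. Rpl13, another large subunit protein, read 12.26, 12.09 and 12.16 in primed and 11.94, 11.86 and 11.93 in naive. Again every primed array was above every naive array, with a difference of 0.26 ± 0.06 (limma, adjusted p = 0.00342). All 9 probe sets named Rpl13 were called higher, with differences of 0.20 to 0.26.

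Rpl30, a large subunit protein that in mammals also binds the selenocysteine insertion element of mRNAs, read 10.43, 10.33 and 10.20 in primed and 10.55, 10.58 and 10.56 in naive. The naive arrays were tightly grouped and all above the primed ones, and the difference was -0.24 ± 0.06 (limma, adjusted p = 0.00806). Rpl7l1, a paralogue of Rpl7, read 12.70, 12.62 and 12.61 in primed and 12.83, 12.89 and 12.85 in naive, a difference of -0.21 ± 0.05 (limma, adjusted p = 0.00589). That call was lost with quantile normalization of gene values (adjusted p = 0.12).

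Rpl34, a protein of the large subunit, came nearest to the threshold among those that passed. It read 9.94, 10.09 and 10.14 in primed and 10.18, 10.24 and 10.30 in naive. The highest primed array was only just below the lowest naive array. The difference of -0.18 ± 0.06 passed by a small margin (limma, adjusted p = 0.0423). The call was lost without primed replicate 1 (adjusted p = 0.139), primed replicate 2 (0.0644), naive replicate 2 (0.0873) or naive replicate 3 (0.150), and under 3 of the 4 other scalings. Just outside the threshold lay Rpl10l (-0.13, adjusted p = 0.0719), Rps14 (0.15, adjusted p = 0.0843) and Rpl36 (0.13, adjusted p = 0.0982) in the same limma fit.

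**Figure D3:**
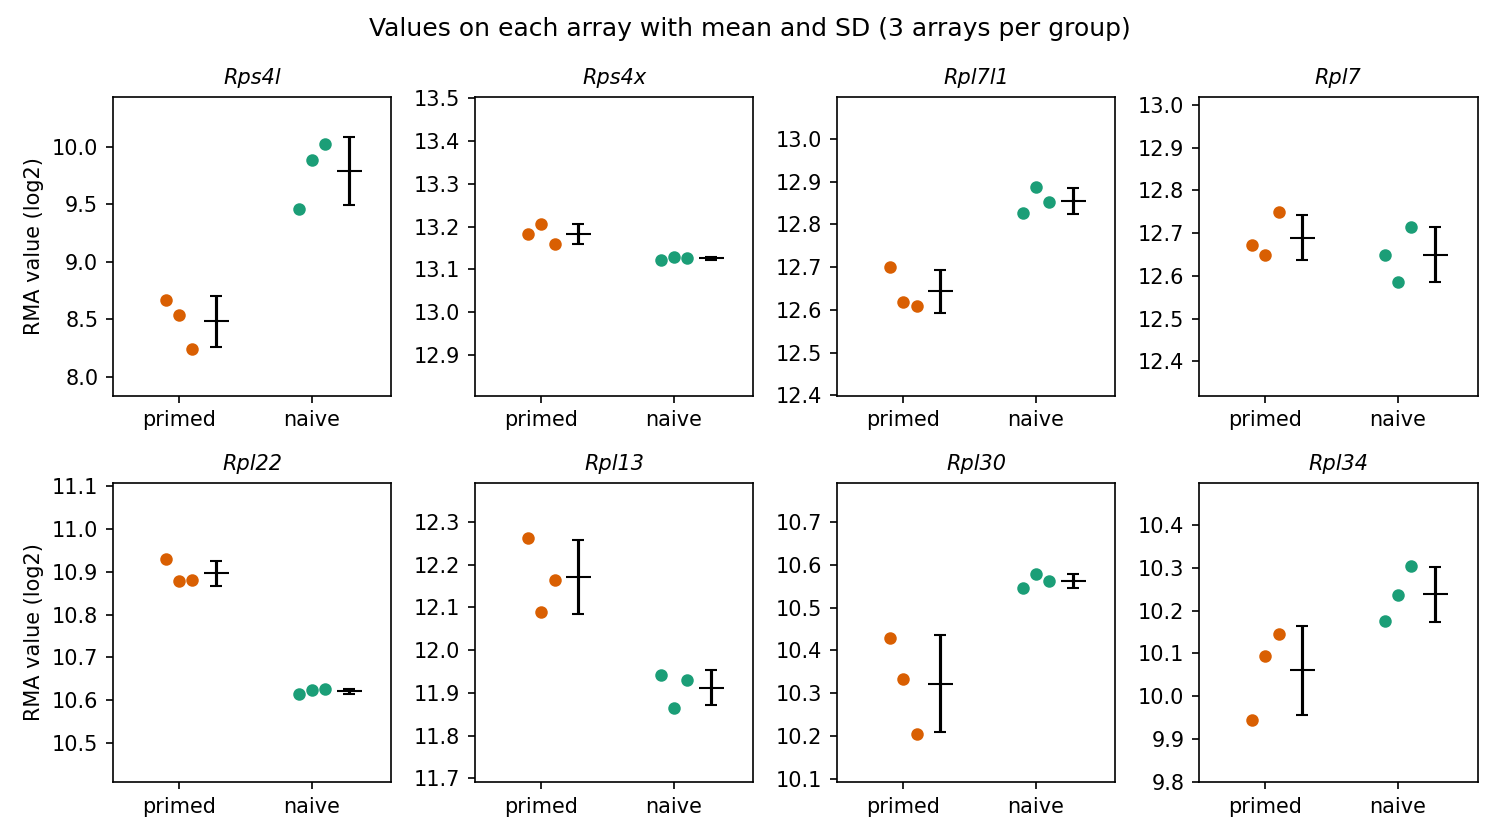
The log2 RMA value on each array is shown as a point for the 6 genes that passed the threshold and for Rps4x and Rpl7, with primed arrays left of naive arrays and the mean and SD (n = 3) beside them. The vertical axis spans the same height in all panels except that of Rps4l, which is wider, and no panel of the 6 called genes has overlapping groups.

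The stalk of the large subunit, built of Rplp0, Rplp1 and Rplp2, recruits the elongation factors. Rplp0 read 13.71, 13.66 and 13.66 in primed and 13.78, 13.74 and 13.74 in naive, which did not overlap, with a difference of -0.08 that did not pass (limma, adjusted p = 0.255). The differences of Rplp1 (0.002) and Rplp2 (-0.05) had 95% intervals of -0.13 to 0.13 and -0.18 to 0.08. Rpsa, the small subunit protein also known as a laminin receptor precursor, read 13.14, 13.04 and 13.00 in primed and 12.98, 12.95 and 12.95 in naive. Every primed array was above every naive array, but the difference of 0.10 did not pass (limma, adjusted p = 0.158).

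Several members are paralogues with a narrow range of expression. Rpl3l, known from heart and skeletal muscle, and Rpl39l, known from testis, did not exceed the receptor signal in either group. Rpl10l, known from testis, read 7.16, 7.15 and 7.21 in primed and 7.36, 7.32 and 7.24 in naive, barely above that signal, which was 6.96 to 7.03. Its X-linked partner Rpl10 differed by -0.09 (limma, adjusted p = 0.154) and Rpl7, the partner of Rpl7l1, by 0.04 (adjusted p = 0.621). Rps27l, a target of p53, differed by -0.08 (adjusted p = 0.234). Of the pairs Rps4x and Rps4l, Rpl7 and Rpl7l1, and Rpl10 and Rpl10l, Rps4l and Rpl7l1 passed the threshold and their partners did not. The difference between partners was not tested.

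Some ribosomal proteins act outside the ribosome. Rpl5 binds Mdm2, the ubiquitin ligase of p53, and read 13.15, 13.21 and 13.18 in primed and 13.18, 13.21 and 13.16 in naive. These groups overlapped fully, and the 95% interval of the difference was -0.11 to 0.11. Rpl23 and Rps7, which also bind Mdm2, differed by 0.03 and -0.03. Rps3, which has a role in DNA repair, differed by 0.02. Rps6, the target of the S6 kinases, differed by -0.05, and Rps19, mutated in Diamond-Blackfan anaemia in people, by 0.07. None of the genes in this group passed the threshold.

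The array annotation pairs many members with several probe sets, 217 in all for the 61, and does not say which of them lie at the gene and which at a processed copy elsewhere. Among the 39 members with several, the differences of one member's probe sets spanned a median of 0.04. No member had probe sets called in opposite directions. Some probe sets of a member had identical values on every array, and 205 of the 217 were distinct. Their agreement is thus not that of independent readings. The span was over 0.1 for Rps4l, Rpl23, Rpl7a and Rps15. In 4 members some probe sets passed and the brightest did not, among them Rps18, with 4 of 7 called higher and a brightest difference of 0.11, and Rpl36, with 2 of 9 called higher.

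Beside the 61 members, RefSeq lists 24 coding genes that fit the naming rule, of which 17 were read only by probe sets with several gene symbols. In a limma fit over all 35556 probe sets, 0 of these 17 were higher and 1 was lower in primed, with a median difference of 0.002. Over all probe sets in that fit, 31.5% passed, 14.3% higher and 17.2% lower in primed. The lower one was Rpl22l1, the paralogue of Rpl22, which in mice is known to be repressed by Rpl22. It read 9.12, 9.16 and 9.11 on primed arrays and 9.32, 9.30 and 9.35 on naive arrays, a difference of -0.19 (limma, adjusted p = 0.0175), and the groups did not overlap. Since its probe set carries several symbols, its signal cannot be given to Rpl22l1 alone. The largest of the 17 differences was that of Rps27, at 0.29 (limma, adjusted p = 0.0623), which did not pass. Rpl11 and Rpl13a, with roles outside translation, differed by 0.02 and 0.001.

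Small shifts between replicates ran through many members. Naive replicate 2 had the lowest value of its group for 36 of 61 members, with a median deviation from the group mean of -0.02, against 0.01 for bright genes that are not members. Primed replicate 1 was above its group mean for all but 4 of the 23 small subunit genes, with a median deviation of 0.04. The bright non-members shared that shift, with a median deviation of 0.03 and 429 of 1947 below the group mean. For scale, the signed median difference between the groups was -0.003 for the 61 members and -0.02 for the small subunit.

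Other genes of the translation machinery were read from the same limma fit, beside the background of 21.8% higher and 22.7% lower. Of 55 ribosome assembly and nucleolar factors, 46 were lower in primed, 9 did not pass and 0 were higher, with a median difference of -0.33. This list is bright, with a median signal of 11.32. Among bright genes that are not members, 39.4% were lower and 18.0% higher, with a median difference of -0.08. Bop1, which processes the ribosomal RNA of the large subunit, read 10.78, 10.68 and 10.68 in primed and 11.54, 11.50 and 11.50 in naive, a difference of -0.80 (adjusted p = 2.8e-07). Its groups were far apart, as were those of Nifk, a nucleolar protein (-0.77), Bysl, needed for small subunit assembly (-0.66), and the helicase Ddx10 (-0.65). The abundant nucleolar proteins Npm1 (-0.11) and Fbl (-0.05) did not pass. The median of this list minus that of the ribosomal protein genes lay between -0.36 and -0.31 over 16 processing settings. Centring, the intensity trend and the replicate block cannot move this value, which was -0.33 in each. Only the other settings bear on it.

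RNA polymerase I, which transcribes the large ribosomal RNAs, had 6 of 11 measured genes lower in primed and 0 higher, with a median of -0.31. Its second largest subunit, Polr1b, read 11.55, 11.38 and 11.45 in primed and 12.32, 12.36 and 12.43 in naive (difference -0.91, limma, adjusted p = 2.8e-07). Primed arrays were all lower by far. Taf1a (-0.65) and Taf1d (-0.38), of its promoter selectivity factor, and the catalytic subunit Polr1a (-0.36) were also lower, while Ubtf (-0.002) and Polr1c (0.001) did not pass.

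Ribosomal proteins of mitochondria are a separate nuclear-encoded family. Of 77, 33 were lower in primed, 6 higher and 38 did not pass, with a median of -0.13. The median was -0.20 with centring on all genes and -0.06 with centring on bright genes, and 12 were higher with bright-gene centring. The largest differences were those of Mrps26 (-0.70), Mrpl20 (-0.68), Mrpl46 (-0.61) and Mrpl33 (-0.57), all lower, and the 6 higher ones reached 0.28 for Mrps15. Both mitochondrial subunits held calls, with 20 of 48 large and 13 of 29 small subunit genes lower. Thus 50.6% of mitochondrial and 9.84% of cytosolic ribosomal protein genes passed the threshold, against 44.5% of all genes. The contrast is given as counts without a test. The cytosolic count, 6 of 61, became 13 to 17 under the other scalings and 16 with the intensity trend.

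**Figure D4:**
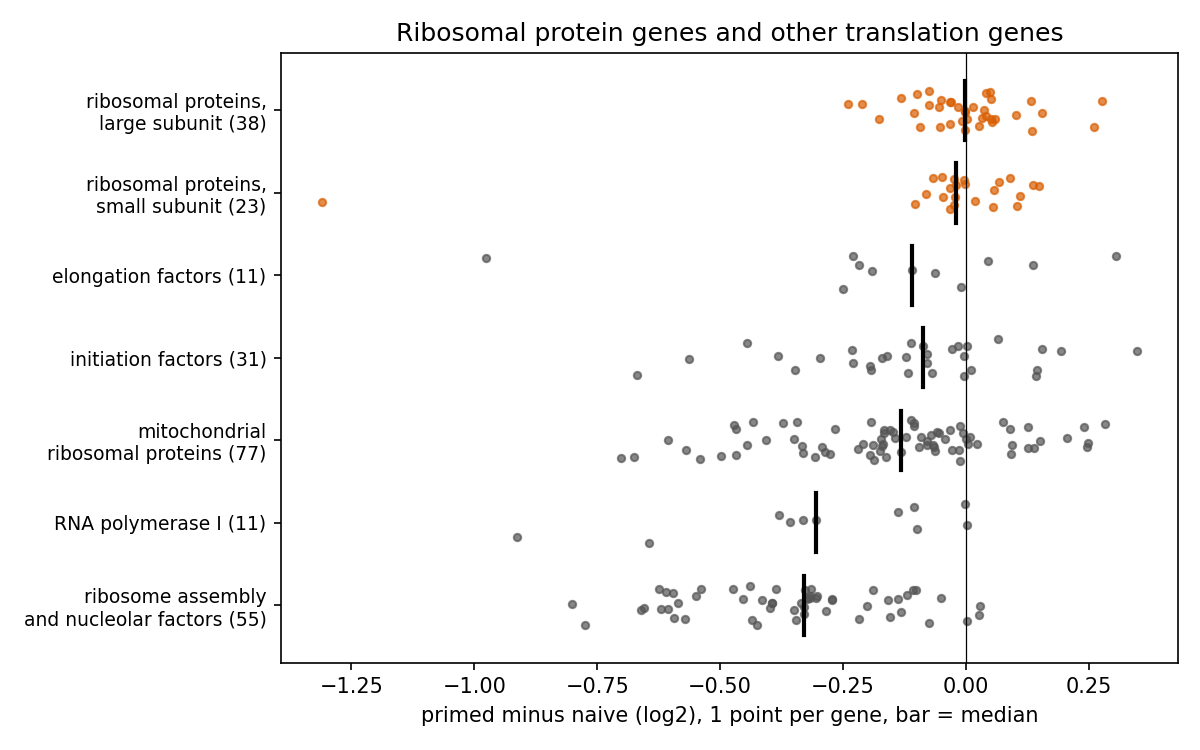
Each point is 1 gene's difference, primed minus naive on the log2 scale, in a row for each list, with the number of genes in parentheses and a bar at the median. Ribosomal protein genes (orange) cluster at 0, while the assembly factors have their median at -0.33 and RNA polymerase I genes at -0.31.

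Of 31 initiation factors, 12 were lower, 2 higher and 17 not past the threshold. Under other scalings 7 to 19 were lower and 1 to 6 higher. The list is bright, with a median signal of 11.99, and 45.2% of it passed. Among bright genes that are not members, 57.5% passed, 39.4% lower and 18.0% higher. Eif2b1, a subunit of the exchange factor for eIF2 (-0.67), Eif5b, which joins the subunits (-0.56), Eif2b4 (-0.45) and Eif6, which keeps the large subunit from joining early (-0.38), were lower. Eif4a2, a helicase (0.35), and Eif4b, its cofactor (0.19), were higher. Of 11 elongation and termination factors 5 were lower, with Eef1d at -0.98, and Eif5a2 was higher (0.31).

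A list of 18 measured other mRNAs known to carry a TOP tract gave 2 higher, 3 lower and 13 not past the threshold, with a median of -0.03. Eef1d (-0.98) and Eef1a1, the abundant elongation factor (-0.22), were lower, as was Hnrnpdl (-0.20), and Eif4b and Tpt1 (0.17) were higher. Among 18 measured regulators of ribosomal protein synthesis, 9 were lower, 3 higher and 6 did not pass. Mycn (-0.92), Myc (-0.67) and its partner Max (-0.48), transcription factors that drive ribosome production, were lower, as were the ETS factor Gabpa (-0.38) and Mtor (-0.17). The call of Mtor passed by a small margin (limma, adjusted p = 0.0428). The 3 higher were Tsc1, an inhibitor of the mTOR pathway (0.37), and Mlst8 (0.22) and Eif4ebp1 (0.16) of the same pathway. Rictor (-0.28) and Rps6kb2 (-0.13) were lower, while Rptor (0.07), Rheb (-0.08) and Tsc2 (-0.02) did not pass. Genes of the mTOR pathway were thus called in both directions. Fau, the only other cytosolic ribosomal protein gene measured outside the naming rule, differed by -0.02 and did not pass.

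**Figure D5:**
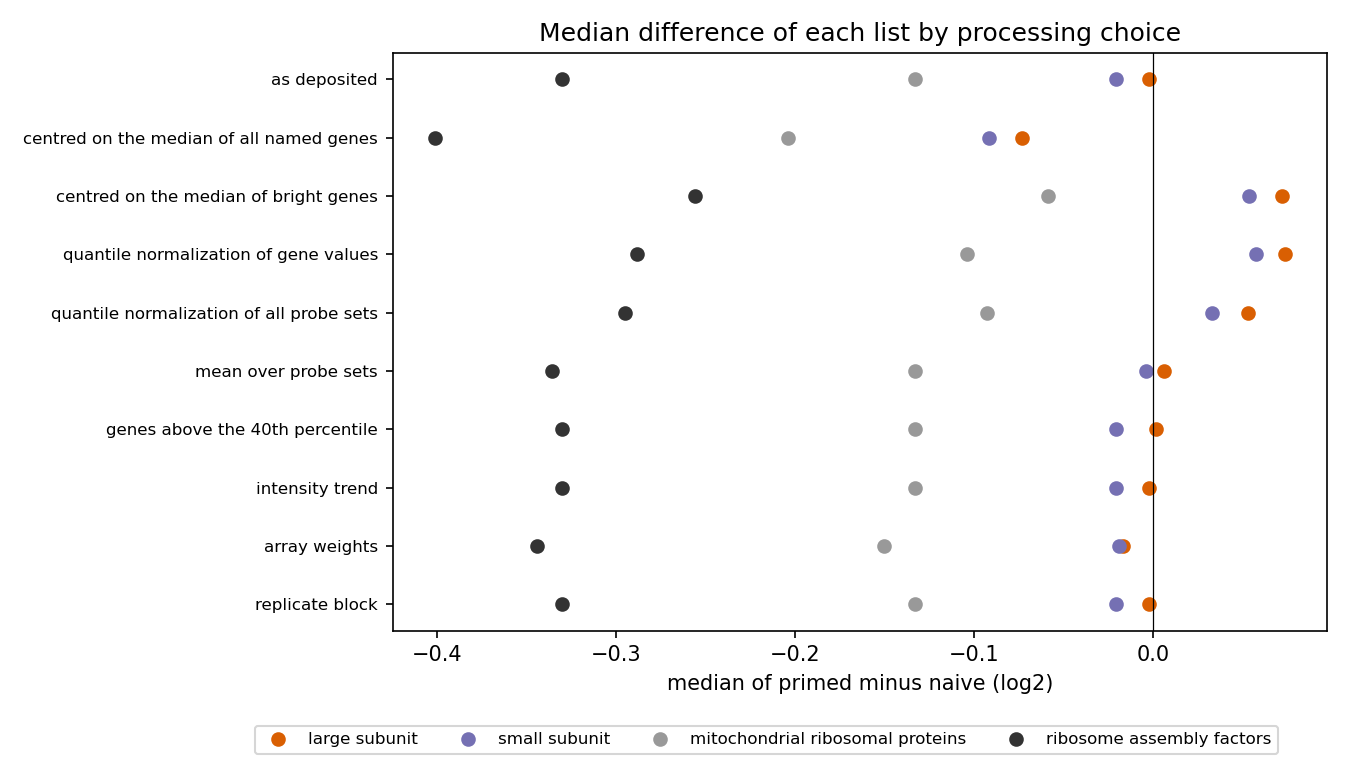
The median difference, primed minus naive on the log2 scale, of 4 lists is shown under each processing choice, 1 row per choice. The medians of the large and small subunit range between -0.09 and 0.07, on both sides of 0. That of the assembly factors moves about as much, between -0.40 and -0.26, and is negative under each choice.

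Small nucleolar RNAs (snoRNAs), which guide the modification of ribosomal RNA, are often cut from introns of ribosomal protein genes. By RefSeq coordinates, 13 measured snoRNA genes lay inside members, of which 1 was higher, 4 lower and 8 did not pass. The share called, 38.5%, was near the 44.5% of all genes. Snord42b, inside Rpl23a on chromosome 11, read 10.05, 10.12 and 10.13 in primed and 10.93, 10.85 and 10.96 in naive. Every primed array was lower, with a difference of -0.81 (limma, adjusted p = 3.02e-07), while Rpl23a itself differed by 0.10 (adjusted p = 0.142). Snord42a, in the same gene, was lower by the same test (-0.47), as were Snord16a inside Rpl4 (-0.74; host -0.003) and Snora3 inside Rpl27a (-0.29; host 0.13). Snord15b inside Rps3 was higher (0.35; host 0.02). Of 38 snoRNA genes elsewhere, 7 were higher and 19 lower, with a median of -0.20.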

How the data were processed

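The deposited values are log2 signals, 1 per probe set and array, made by the authors with RMA in Partek 6.6, per the submitters' processing notes. The RMA options and a genome build are not stated there. The 35556 values of an array had medians of 7.77 to 7.83. Arrays carry no read depth, and their number limits the precision. Gene names came from GEO's annotation of the platform. Of the probe sets, 21789 had 1 symbol, 1621 had several (not used for the members) and 12146 are not named here, and 21698 matched the RefSeq table of GRCm38.p6, which gave current symbols.

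The brightest probe set was taken per gene. Groups were compared, primed minus naive, by limma's moderated test, two-sided and without covariates (version 3.58.1, R 4.3.3), with Benjamini-Hochberg adjustment over 19938 genes and a threshold of 0.05. The fit was checked on simulated data. It called 0 of 50 planted differences of 0.1 and 9 of 50 of 0.25. Of larger ones it called 42 of 50 of 0.5 and 50 of 50 of 1, with 2 of 19738 unchanged genes called. Far fewer genes were changed there than the 44.5% called in the data, so these rates need not hold here. Background was the 95th percentile of 1190 receptor genes per array. RMA compresses differences of dim genes, and saturation of the brightest probes was not tested. Promoters were searched with Python 3.11.15.

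The members and lists were chosen with earlier results of these data known. The rule named called members (up to 10 in each direction), stalk genes, paralogue pairs, genes with other roles, members in background or with disagreeing probe sets, and 4 genes per list, taken by size of difference. Other genes in the text were picked after their values were seen.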

Additional observations from a re-analysis of the deposited data

How the results depend on the processing

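Alternatives changed scaling, probe set summary, the filter on dim genes, the variance model, the threshold and the arrays used. Large subunit genes higher in primed (2 as reported) numbered 6 with centring on bright genes, 6 and 5 with quantile normalization of gene values and of all probe sets, and 5 with an intensity trend. Those lower (3) numbered 9 with centring on all genes and 5 with the trend. Small subunit genes higher (0) numbered 7, 8 and 5 under the same 3 scalings, 4 with the trend, 1 with the mean over probe sets, 1 with genes above the 40th percentile, and 0 to 1 when 1 array was left out (1, Rps14, without primed replicate 2 or naive replicate 3). Those lower (1) numbered 3 with centring on all genes and 2 with the trend. Centring on all genes, centring on bright genes and the 2 quantile settings gave medians of -0.0732, 0.0721, 0.0736 and 0.0527 for the large subunit (-0.002 as reported) and -0.0919, 0.0534, 0.0577 and 0.0331 for the small subunit (-0.02), and centring on all genes gave a small subunit median size of 0.0919 (0.0554). Of all genes called, 49.0% were higher in primed, against 35.2% and 64.2% with the 2 centrings. Assembly factors gave 0 higher under every scaling. Initiation factors varied between 1 and 6 higher and between 7 and 19 lower over the scalings. Of the 6 called members none changed sign in any setting. Samples of one number did not deviate together (r over genes -0.11, 0.002 and -0.02), so the numbers are not taken as pairs, and a replicate block gave the same counts of members (2 and 3 large, 0 and 1 small) and 4172 higher and 4344 lower of all genes. Of 1292 values of single genes over 16 settings, 25 lost and 17 gained a call and 0 called values reversed. The other 1250 kept their side of the threshold, among them 28 of uncalled genes that changed sign.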

Other observations

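Probe sets named for the pseudogenes Rpl14-ps1 and Rps19-ps3 differed by -0.11 and -0.12, and neither passed. Of 3 members whose gene lies on the X chromosome, Rpl10, Rpl36a and Rps4x, none passed, with differences of -0.09, -0.08 and 0.06. The annotation does not say whether the probe sets used lie at these genes or at processed copies elsewhere.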
